A study of Mus musculus with 3 samples.

Results

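The 9 genes described here encode 2 chains of laminin-332 (Lama3 and Lamb3), the collagen and the cytolinker of the hemidesmosome (Col17a1 and Dst) and 5 integrin subunits (Itga6, Itgb4, Itga3, Itgb1 and Itga5). They were taken by gene symbol from the 31053 genes of the deposited count matrix, and all 9 were found. The cells came from C57Bl/6 mice, bought at 6 weeks of age, and from tissue (distal colon with anus) that spans the anorectal junction between the squamous lining of the anus and the columnar lining of the colon. Mice of day 0 were untreated and had normal histology, mice of day 7 had drunk 3% dextran sulfate sodium (DSS), which damages colon epithelium, for 6 days and had severe colitis, and mice of day 42 had received the same treatment and had recovered. Each day is 1 library from the pooled tissue of 5 mice, so no day has a replicate, no test between days was possible, and the day cannot be told apart from the library. Tissue was digested with trypsin-EDTA for 20 min and dead cells were removed with an Annexin V kit, so the matrix beneath the epithelium was not sampled, only the RNA of the cells.

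Hemidesmosomes are the junctions that tie the basal cells of a stratified epithelium to the basement membrane. Integrin alpha-6 beta-4 (Itga6 with Itgb4) spans the membrane and binds laminin-332 outside the cell, collagen XVII (Col17a1) spans it beside the integrin, and inside the cell plectin and the epithelial form of dystonin (Dst, also called BPAG1) connect the plaque to keratin filaments. Integrins alpha-3 beta-1 and alpha-5 beta-1 work outside hemidesmosomes: the former binds laminins, the latter fibronectin, and both are linked to actin through focal adhesions. Simple columnar epithelium of the gut carries a reduced hemidesmosome with the integrin and plectin.

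Counts are unique molecular identifiers (UMIs, 1 for each captured molecule), summed over the cells of a class or a cluster and given per 1000000 UMIs of those cells (CPM). The 3 libraries held 11037 to 14376 cells and 72258639 to 151886649 UMIs. Keratinocytes (the squamous class, 10 clusters of the authors) numbered 3316 at day 0, 9035 at day 7 and 7970 at day 42, with median UMIs per cell of 9168, 11481 and 6542. Colonocytes with their secretory and enteroendocrine kinds (the columnar class, 5 clusters) numbered 4306, 1062 and 1680. Of 36941 distinct cell barcodes, 139 occurred in more than 1 library. The labels hold up against markers: Krt5, Krt14, Krt15 and Trp63 summed to 9107, 13518 and 20371 CPM in the squamous class and to 515, 1769 and 1683 CPM in the columnar class, and 10 columnar markers such as Krt8 and Car1 to 632, 494 and 1671 CPM against 15908, 25500 and 20855 CPM. Intervals below are exact 95% Poisson intervals of the summed UMIs (shares of cells have exact Clopper-Pearson intervals). They cover counting error only, not the spread between mice.

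Coordinates below are of GRCm38 in the GENCODE M21 annotation. Dst spans chr1:33908225-34308661 (plus strand) and Lamb3 chr1:193207699-193343878 (plus). Itga6 lies at chr2:71745616-71858416 (plus), and Itgb4 at chr11:115974709-116008412 (plus). Itga3 lies at chr11:95044474-95076801 (minus), Itga5 at chr15:103344286-103366763 (minus), Col17a1 at chr19:47646344-47692094 (minus) and Itgb1 at chr8:128685654-128733200 (plus). Counts cover the 3' ends of transcripts over whole genes, so the epithelial, neuronal and muscle forms of Dst cannot be told apart.

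Promoter sequences of 6 of the 9 genes were matched by symbol in a table from RefSeq (GRCm38.p6). The 250 bases before 1 start site are shown for Lamb3, Col17a1 and the inner start site of Dst, because Lamb3 and the other 2 genes moved in opposite directions in squamous cells. Capitals mark CACCC on either strand (GGGTG when read on the strand shown), the letters that proteins of the KLF family of epithelial factors can bind:
Lamb3, chr1:193301744-193301993, plus strand: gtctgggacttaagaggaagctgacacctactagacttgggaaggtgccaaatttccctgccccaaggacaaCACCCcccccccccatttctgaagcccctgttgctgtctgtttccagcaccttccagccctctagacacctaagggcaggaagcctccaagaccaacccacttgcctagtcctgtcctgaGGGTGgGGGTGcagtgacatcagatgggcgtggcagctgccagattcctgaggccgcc
Col17a1, chr19:47692043-47692292, minus strand: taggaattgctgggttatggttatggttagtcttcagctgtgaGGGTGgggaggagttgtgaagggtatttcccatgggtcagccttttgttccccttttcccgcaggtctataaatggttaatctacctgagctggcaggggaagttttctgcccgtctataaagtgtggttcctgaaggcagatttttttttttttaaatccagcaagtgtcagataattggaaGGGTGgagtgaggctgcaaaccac
Dst, chr1:34160010-34160259, plus strand: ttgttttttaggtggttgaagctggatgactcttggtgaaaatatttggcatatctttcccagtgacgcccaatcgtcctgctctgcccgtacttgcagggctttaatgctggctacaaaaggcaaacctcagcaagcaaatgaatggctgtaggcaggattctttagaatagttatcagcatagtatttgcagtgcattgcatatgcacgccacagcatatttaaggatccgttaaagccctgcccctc
The Lamb3 stretch holds 3 such matches, the Col17a1 stretch 2 and the Dst stretch 0, while 52.0% of 32851 promoters of the same length in the table hold at least 1. TATAAA, the TATA box letters, occurs in 12.4% of them and has 2 matches in the Col17a1 stretch. TGANTCA, the letters of an AP-1 site, occurs in 6.75% of all and in none of the 9 member start sites. A match of letters is a description of the sequence and not a bound site, and no match says only that these letters are not in this window.

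In squamous cells Lama3 and Lamb3 were higher after DSS. Lama3 stood at 28.7 CPM at day 0 (26.9 to 30.5), 68.3 CPM at day 7 (66.8 to 69.7) and 71.4 CPM at day 42 (69.2 to 73.6). The level of day 0 lay below both later days, whose intervals overlap. After adding 10 CPM to each level, the log2 ratio was 1.02 at day 7 and 1.07 at day 42, each against day 0. Lamb3 stood at 56.6 CPM (54.1 to 59.2), 95.9 CPM (94.2 to 97.6) and 114.8 CPM (112.0 to 117.6), so that no intervals overlapped and the order was day 0, day 7, day 42. Its log2 ratios were 0.67 and 0.91. In cells thinned to 1000 UMIs each, which weighs deep and shallow cells alike, the ratios were 0.39 and 0.82 for Lama3 and 0.024 and 0.46 for Lamb3, none of them past 2-fold. In the squamous class neutrophil markers summed to 22.9, 1556 and 185 CPM at the 3 days, basal markers to 9107, 13518 and 20371 CPM, suprabasal markers to 10844, 6208 and 6289 CPM, hair follicle and gland markers to 2291, 1936 and 398 CPM and fibroblast markers to 122, 34.9 and 38.4 CPM. Their part in the squamous values was not tested.

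Collagen XVII and dystonin went the other way in the same cells. Col17a1 was at 401.6 CPM in squamous cells at day 0 (394.9 to 408.4), at 235 CPM at day 7 (232 to 237) and at 309.9 CPM at day 42 (305 to 314). Dst was at 399.8 CPM (393 to 407), 213 CPM (211 to 216) and 285 CPM (281 to 289.7). Both were highest at day 0 and lowest at day 7, with day 42 between and no overlap of intervals. The log2 ratios at day 7 were -0.75 for Col17a1 and -0.88 for Dst, and at day 42 -0.36 and -0.47. In squamous cells thinned to 1000 UMIs each, 34.5%, 20.3% and 26.2% had a Col17a1 UMI at the 3 days (71.9%, 59.2% and 65.2% unthinned), against 0.556%, 2.06% and 4.55% of thinned T cells (0.490%, 2.80% and 4.35% unthinned), which should lack it. The median UMIs of T cells were 2138, 2293 and 1435.

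Of the 5 integrin subunits 4 were higher at both later days, none of them past a log2 ratio of 1. Itga6 was at 245.5 CPM in squamous cells at day 0 (240.3 to 250.8), 380.4 CPM at day 7 (377 to 384) and 389 CPM at day 42 (384 to 394). Itgb4, its hemidesmosome partner, was at 96.2 CPM (92.9 to 99.5), 149.6 CPM (147 to 152) and 171 CPM (167 to 174). The later days stood above day 0 for both, with log2 ratios at day 7 of 0.61 and 0.59 and at day 42 of 0.64 and 0.77. Itgb1, the beta chain shared by alpha-3 and alpha-5, was at 115 CPM (112 to 119), 177 CPM (175 to 179) and 238 CPM (234 to 242), with log2 ratios of 0.58 and 0.98. Itga3 had its highest level at day 7 alone: 26.5 CPM (24.8 to 28.3), then 62.7 CPM (61.3 to 64.1), then 35.1 CPM (33.6 to 36.7), with log2 ratios of 0.99 and 0.30. Itga5, the fibronectin receptor subunit, was nearly absent from keratinocytes with 2.24 CPM (1.76 to 2.80), 3.09 CPM (2.80 to 3.41) and 2.17 CPM (1.81 to 2.58), and at most 3.88% of squamous cells had a UMI of it.

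**Figure D1:**
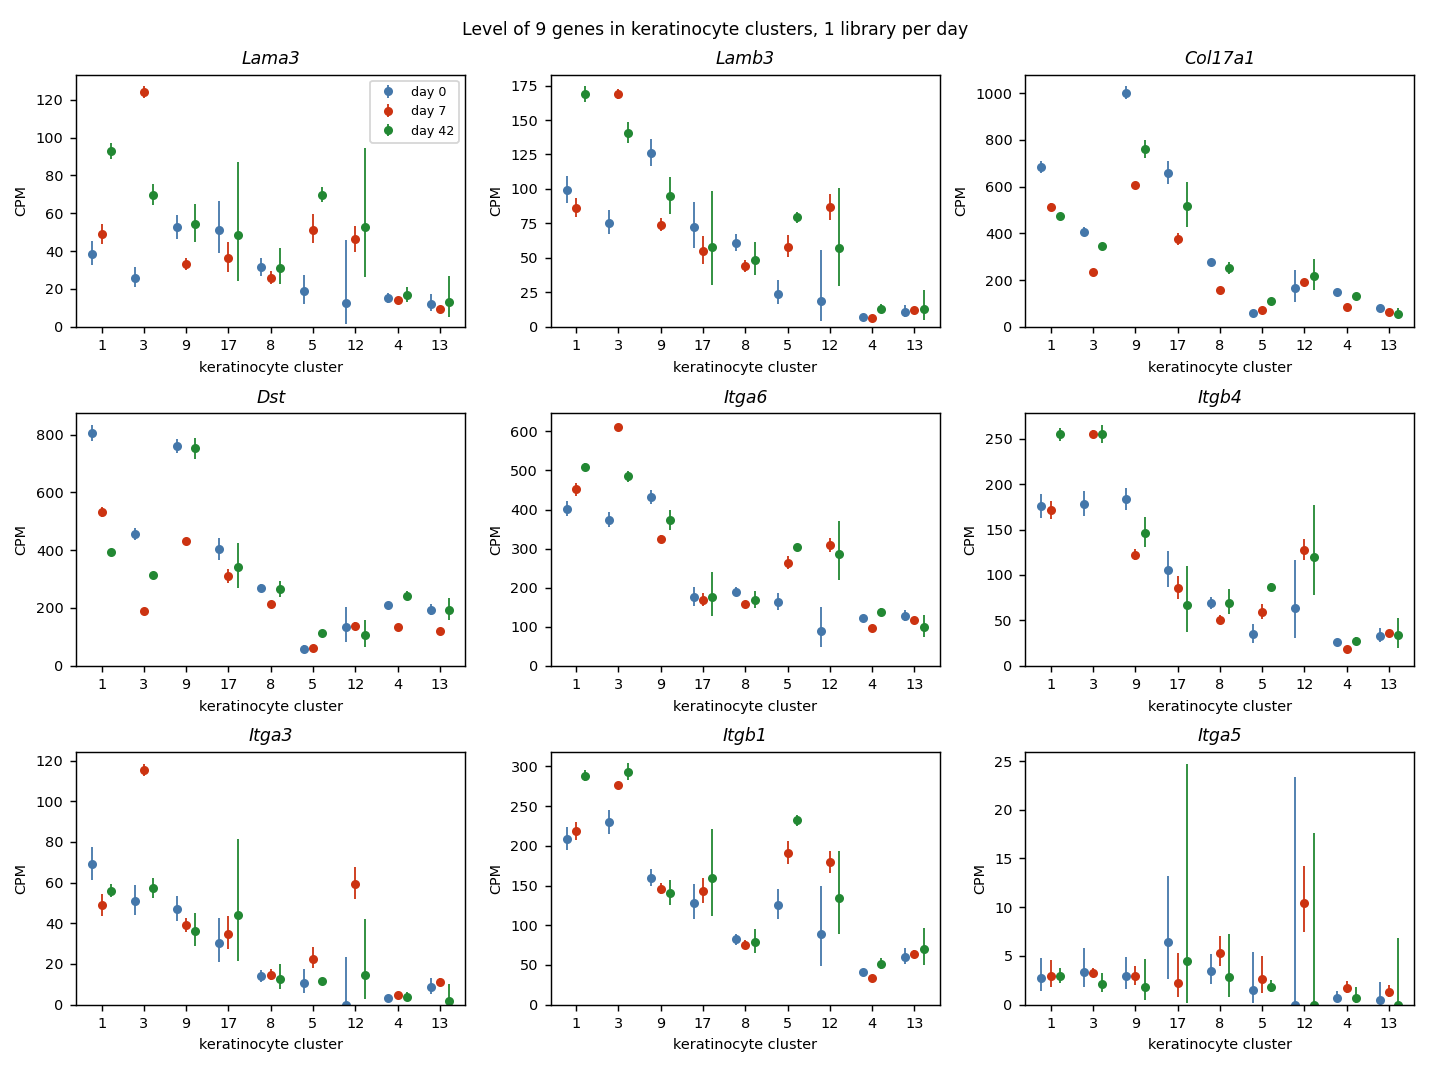
CPM of each of the 9 genes (vertical axes, each from 0) in the 9 keratinocyte clusters with at least 50 cells (horizontal axes) at day 0 (blue), day 7 (red) and day 42 (green). Points are sums over 1 library and bars exact 95% Poisson intervals. At day 7 Lama3, Lamb3, Itga6, Itgb4 and Itga3 stand higher in cluster 3 than in the other 8 clusters. In these sums Col17a1 is highest in cluster 9 on every day.

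A gene was called past 2-fold when the log2 ratio was at least 1 in size and its level at least 10 CPM in either library. Of the 9 genes 8 reached that level in squamous cells, all but Itga5. At day 7 against day 0, 1 of the 8 was past 2-fold, Lama3, beside 2.55% of 8378 genes. At day 42 against day 0 it was again 1 of 8, Lama3, beside 5.18% of 8401 genes, and at day 42 against day 7 it was 0 of 8 beside 3.81% of 8139 genes. The median log2 ratio of the 8 genes was 0.60 at day 7 and 0.70 at day 42, beside -0.0089 and -0.034 over all genes tested. Counts of this size turn on single genes near the threshold: Itga3 at day 7 lay at 0.99 and Itgb1 at day 42 at 0.98, and the count at day 7 ran from 0 to 2 over the alternatives tried.

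The summed squamous levels of day 7 depended on 1 cluster for 6 genes, although single clusters differed in direction. Cluster 3, in which the dividing-cell markers Mki67, Top2a, Birc5 and Ube2c summed to 2678 CPM at the start, then 1178 and 2171 CPM, held 8.11% of squamous cells at day 0 and 21.9% at day 7. Its cells were also the deepest at day 7, with a median of 25857 UMIs (13704 at day 0 and 9242.5 at day 42), so that it held 43.5% of squamous UMIs. It held 79.0% of the squamous Lama3 UMIs at day 7, 76.6% of those of Lamb3, 80.1% of those of Itga3 and 69.9% of those of Itga6. At day 0 the same shares were 10.2%, 15.1%, 21.7% and 17.2%. Without cluster 3 the log2 ratio of squamous cells at day 7 turned to -0.14 for Lama3, to -0.37 for Lamb3, to -0.17 for Itga6, to -0.29 for Itgb4 and to -0.057 for Itga3, and for Itgb1 it was -0.0044. Taken cluster by cluster, Itga3 was above day 0 in 7 of 9 clusters and Itgb1 in 6, and Lama3, Lamb3, Itga6 and Itgb4 in 4 each. Col17a1 at -0.75 and Dst at -0.74 stayed low without it. At day 42 the picture did not rest on cluster 3: without it Lama3 was at 1.06, Lamb3 at 0.90 and Itgb1 at 1.10. The log2 ratio of Itga3 at day 42 against day 7 turned from -0.687 to 0.345 without cluster 3, so that its highest level was then not at day 7.

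**Figure D2:**
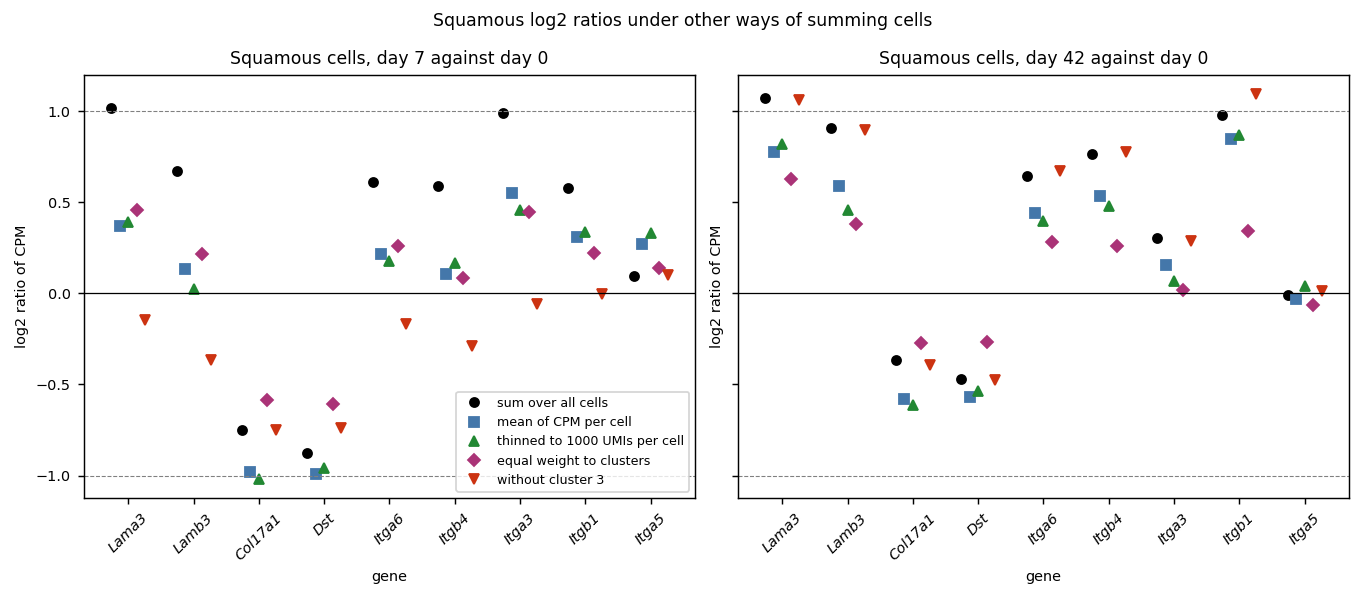
Log2 ratio of squamous CPM at day 7 (left) and day 42 (right) against day 0 for the 9 genes, under 5 ways of combining cells; dashed lines mark 2-fold. Without cluster 3 (red) 6 genes that were above 0 at day 7 lie below it, while Col17a1 and Dst lie below 0 under all 5.

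Within cluster 3 itself, 4 of the 8 measured genes were past 2-fold at day 7, beside 5.84% of 8316 genes. Lama3 went from 25.7 CPM (20.9 to 31.3) to 124 CPM (121 to 127), a log2 ratio of 1.91. Lamb3 went from 75.6 CPM (67.2 to 84.9) to 168.9 CPM (165.5 to 172), 1.06, and Itga3 from 51.0 CPM (44.1 to 58.6) to 115 CPM (113 to 118), 1.04. Dst went down from 456 CPM (435 to 478) to 189.9 CPM (186 to 194), -1.22, so that the same cluster held a higher share of laminin and a lower share of dystonin RNA. Lama3 at 1.18 and Dst at -1.07 were still past 2-fold in cells thinned to 1000 UMIs, whereas Lamb3 (0.40) and Itga3 (0.85) were not. At day 42 only Lama3, at 69.8 CPM (64.6 to 75.3), was past 2-fold against day 0 in this cluster, with a log2 ratio of 1.16 (0.49 thinned), beside 2.27% of 8292 genes. The basal markers of the cluster were also higher at the later days, 12711, 18576 and 18654 CPM, and the neutrophil markers S100a8, S100a9, Retnlg and Csf3r summed to 2.08, 931 and 109 CPM. Their part in the result was not tested.

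Cluster 1, whose dividing markers were low at 136 to 148 CPM, held 38.2% of squamous cells at day 42. At day 7 none of 8 measured genes was past 2-fold there, beside 1.55% of 8116 genes, and Lamb3 was at 98.9 CPM (89.5 to 109) and 86.3 CPM (79.4 to 93.6) at day 0 and day 7. Of the 8, 5 were below day 0 and 3 above, where 55.6% of all genes tested were below. Dst was at 531 CPM (514 to 549), -0.59, and Col17a1 went from 684 CPM (659 to 710) to 512 CPM (495 to 529), -0.41. Itga3 was also lower (69.1 to 49.0 CPM, -0.42) and Itga6 higher (402 to 452 CPM, 0.16), all 4 with intervals apart. At day 42, 2 of 8 were past 2-fold, beside 3.94% of 8254 genes: Lama3 up from 38.7 CPM (32.9 to 45.2) to 92.8 CPM (88.7 to 97.1), 1.08, and Dst down from 806 CPM (779 to 834) to 395 CPM (387 to 404), -1.01. Lamb3 stood at 168.8 CPM (163 to 174.5) and Itgb4 at 255 CPM (248 to 262) at day 42, 0.71 and 0.51. The mean of CPM per cell put Lama3 at 0.94 and Dst at -0.97, both just inside 2-fold. In this cluster the basal markers went from 13106 CPM at day 0 to 21124 CPM at day 42, the suprabasal ones from 1945 to 1012 CPM, the columnar ones from 373 to 691 CPM and the neutrophil ones from 2.20 to 127 CPM, and their part in the result was not tested.

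Cluster 5 carries Krt4 and Krt13 among its suprabasal markers and held 87, then 162 and then 2153 cells over the 3 days. All 8 measured genes stood above their day 0 level there at both later days, where 45.3% of all genes tested were above 0 at day 7 and 55.0% at day 42. The intervals overlapped those of day 0 for Col17a1 and Dst at day 7 and for Itga3 at day 42. At day 7 Lama3 (1.10) and, by a narrow margin, Lamb3 were past 2-fold beside 5% of 7353 genes. At day 42 there were 3, beside 4.25% of 7489 genes: Lama3 from 18.7 CPM (12.1 to 27.6) to 69.9 CPM (66.1 to 73.8), Lamb3 from 23.9 CPM (16.4 to 33.8) to 79.4 CPM (75.4 to 83.6), and Itgb4 from 34.4 CPM (25.2 to 45.9) to 87.0 CPM (82.8 to 91.3). The basal markers of cluster 5 were 12047, 25337 and 26190 CPM and its suprabasal markers 28810, 13205 and 10823 CPM, with neutrophil markers at 108, 1491 and 252 CPM and columnar markers at 5227, 2356 and 3912 CPM, and their part in the result was not tested. After thinning, which kept 86 of the 87 cells of day 0, the cluster gave log2 ratios for Lama3 of -0.26 at day 7 and 0.50 at day 42, and Itga6 at day 7 turned from 0.65 to -0.019, so the direction of these genes at day 7 is not settled by these cells. With the mean of CPM per cell Lama3 (0.53) and Lamb3 (0.41) at day 7 and Lamb3 (0.83) at day 42 were no longer past 2-fold.

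At day 7 cluster 9 moved opposite to cluster 3 for the laminin genes, Itga6 and Itgb4. For Col17a1 and Dst both clusters were lower. Cluster 9 had the highest summed Col17a1 level of all keratinocyte clusters on each day, 1002 CPM (975 to 1030), 606.5 CPM (593 to 620.2) and 760.2 CPM (724 to 798). It also had the highest Lama3 and Lamb3 of day 0. With thinning and with the mean of CPM per cell, cluster 17 was highest at day 0 for Col17a1 and Lama3 instead. At day 7 all 8 measured genes lay below day 0, none past 2-fold, beside 1.84% of 8240 genes past 2-fold and 59.0% of them below 0. Lamb3 went from 125.8 CPM (116 to 136) to 73.8 CPM (69.2 to 78.7), Itgb4 from 184 CPM (172 to 196) to 122 CPM (116 to 129), and Dst from 759 CPM (735 to 783) to 430.3 CPM (419 to 442). Those log2 ratios were -0.70, -0.55 and -0.80, and they ranged from -0.84 to -0.67, from -0.66 to -0.53 and from -0.92 to -0.77 over the alternatives. Neutrophil markers in cluster 9 summed to 2.74, 2924 and 208 CPM, and their part in the lower levels was not tested. At day 42 Dst was back at 752 CPM (716 to 789.8) and Lama3 at 54.2 CPM (44.9 to 64.9), both overlapping day 0. Lamb3 at 94.6 CPM (82.1 to 108), Itgb4 at 146.5 CPM (130.9 to 164), Itga6 at 372 CPM (347 to 399) and Col17a1 were still below day 0 with intervals apart. In all, 7 of the 8 genes had a ratio below 0, beside 64.6% of 8223 genes. Other clusters also had ratios below 0 at day 7: 6 of 6 measured genes in cluster 4, where 56.7% of all genes tested were below 0. In cluster 8 it was 7 of 8, beside 61.8%, and in cluster 17 it was 6 of 8, beside 56.8%.

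**Figure D3:**
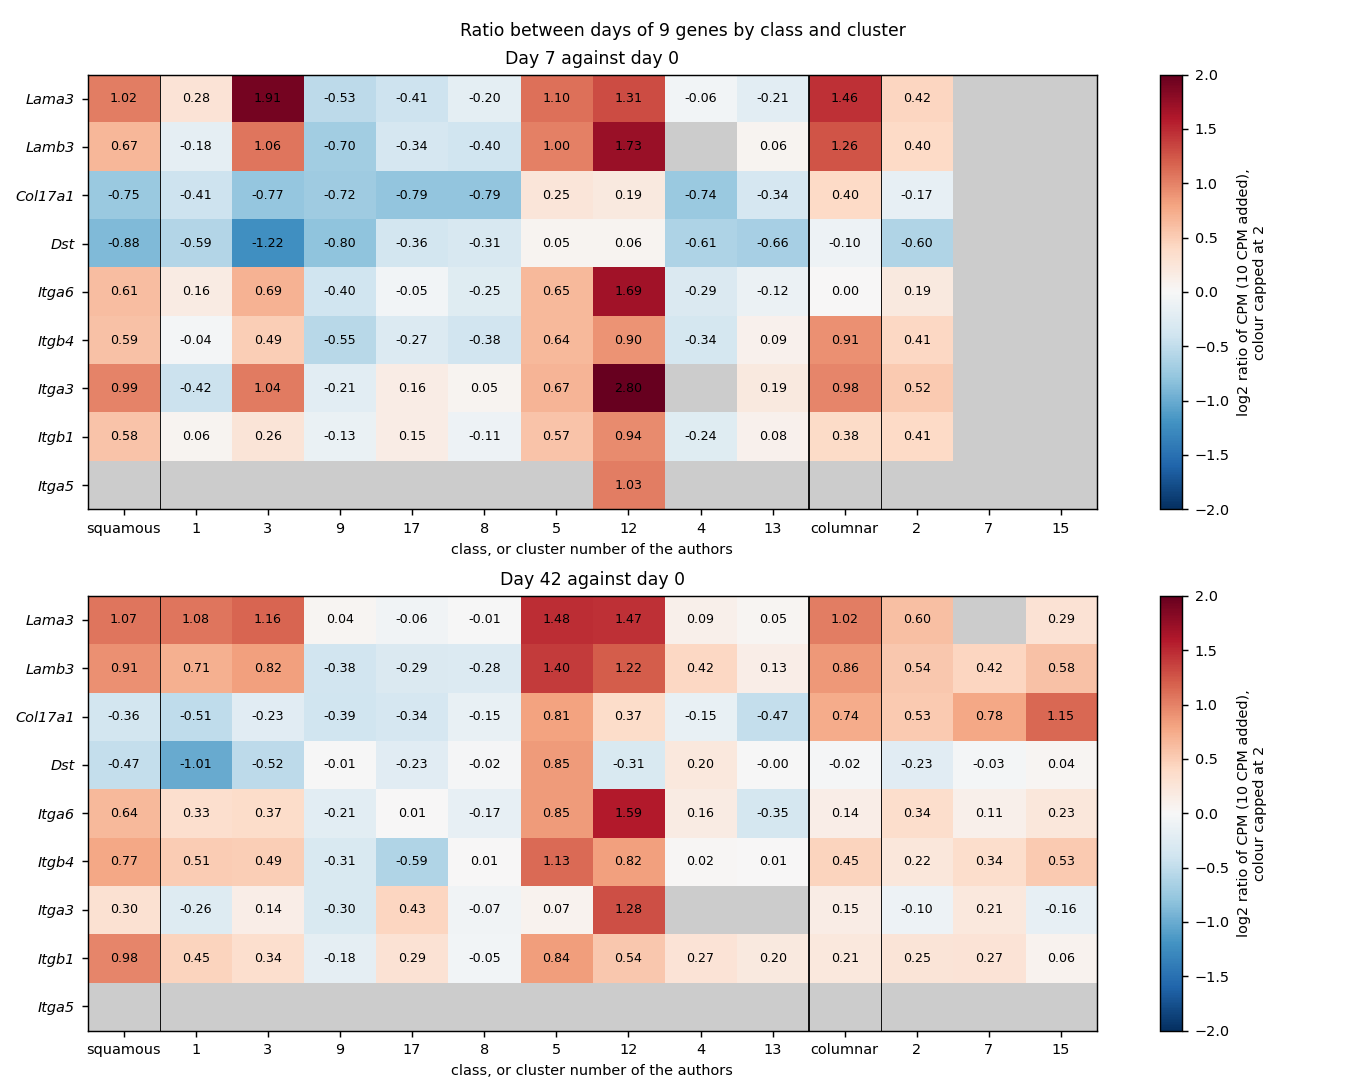
Log2 ratio of CPM (10 CPM added; colours capped at 2) of the 9 genes against day 0 at day 7 (upper) and day 42 (lower), by class and by cluster. Grey marks genes under 10 CPM in both libraries or clusters under 50 cells in either. Cluster 3 is red for the laminin and integrin rows and blue for Col17a1 and Dst at day 7, and cluster 9 is blue in all 8 measured rows.

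The clusters with the highest levels differed between genes and days. Itgb1 was highest in clusters 3 and 1 on all days, with overlapping intervals at day 0 and day 42. Itga6 and Itgb4 were highest in clusters 9, 1 and 3 at day 0, where neighbours in the order overlapped (Itgb4 at 184, 176 and 179 CPM), and in cluster 3 at day 7. The highest Lama3 and Lamb3 levels moved from cluster 9 at day 0 (where Lama3 overlapped cluster 17, at 51.3 CPM) to cluster 3 at day 7 and cluster 1 at day 42. Cluster 4, led by suprabasal markers at 24322 to 28516 CPM, and cluster 13, high in hair follicle and gland markers, were low throughout, with Lamb3 between 6.26 and 13.1 CPM and Itgb4 between 18.6 and 35.6 CPM. Cluster 4 held 85.9 to 149.9 CPM of Col17a1 and 134 to 243 CPM of Dst. Cluster 12 is not described between days on its own, though it enters the values over clusters given next, since hair markers made up 92989 CPM of its 51 cells at day 0 and 547 CPM of its 1668 cells at day 7. Of the 27 gene and day pairs, 23 kept the same top cluster after thinning and 22 with the mean of CPM per cell. Under both, cluster 17 became the top for Lama3 at day 0 and day 42, Col17a1 at day 0 and Itga3 at day 42. With the mean of CPM per cell Dst at day 0 changed as well, from cluster 1 to cluster 9.

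The mix of clusters differed between days, and its share in the ratios differed by gene. Each cluster was weighted by its share of UMIs, so that the mix takes in depth per cell as well as cell numbers. With the day 0 profiles and the later mix alone, the squamous log2 ratio of Itgb1 was 0.39 at day 7 and 0.47 at day 42. That of Itgb4 was 0.32 and 0.22. For Lama3 it was -0.10 and -0.021, and for Lamb3 0.065 and 0.12, against ratios of 1.01 and 1.07 and of 0.67 and 0.90 over the same clusters. Later profiles at the day 0 mix gave 0.30 and 0.45 for Lama3 and -0.022 and 0.25 for Lamb3, so that neither part alone gave the laminin ratios. For Dst and Col17a1 the mix alone gave 0.0019 and -0.073 at day 7, while later profiles at the day 0 mix gave -0.67 and -0.65. Their lower levels at day 7 were thus seen within clusters, lower in 7 of the 9 clusters for each gene, with clusters 5 and 12 as the 2 that were not.

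In columnar cells the laminin genes were also higher at day 7. Lama3 stood at 24.8 CPM at day 0 (23.3 to 26.3), 86.0 CPM at day 7 (80.0 to 92.3) and 60.5 CPM at day 42 (56.0 to 65.2). Lamb3 stood at 60.2 CPM (58.0 to 62.6), 158 CPM (150.3 to 167) and 118 CPM (111 to 124). The order was day 0, day 42, day 7 for both, without overlap. The order of the later days turned with the way cells were combined: the log2 ratio of day 42 against day 7 was -0.45 for Lama3 and -0.40 for Lamb3, but 0.075 and 0.12 with the mean of CPM per cell, 0.29 and 0.12 after thinning, and 0.18 and 0.14 in cluster 2 alone. The log2 ratios were 1.46 and 1.26 at day 7 and 1.02 and 0.86 at day 42. Neutrophil markers in the class summed to 0.797, 2217 and 103 CPM, suprabasal markers to 548, 973 and 430 CPM and basal keratinocyte markers to 515, 1769 and 1683 CPM, and their part in the result was not tested. At day 7, 2 of 8 measured genes were past 2-fold, both laminin chains, beside 6.45% of 8486 genes. At day 42 it was 1 of 8, Lama3, beside 1.83% of 8317, and at day 42 against day 7 it was 0 of 8, beside 2.88% of 8118. The median over all genes was -0.14 at day 7, and relative to it the log2 ratios of Itgb4 and Itga3 were 1.05 and 1.12. The share of all genes past 2-fold relative to that median was not computed, so neither gene is counted. Itgb4 was at 95.7, 188.6 and 134 CPM and Itga3 at 30.6, 70.2 and 35.0 CPM, while Itga6 (319.95, 321 and 353 CPM) and Dst (115, 107 and 113 CPM) differed little.

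The columnar class held other clusters at each day. Cluster 2, low in dividing markers (20.4 to 58.3 CPM), held 1936 of 4306 columnar cells at day 0 and 703 of 1062 at day 7, while cluster 7 (593 CPM of dividing markers at day 0) went from 1809 to 33 cells. Laminin was a feature of cluster 2: Lama3 was at 75.8 CPM there (71.1 to 80.8) and at 3.29 CPM in cluster 7 (2.64 to 4.05) at day 0, and Lamb3 at 138 CPM (132 to 145) against 28.9 CPM (26.9 to 31.0). Itgb4 was at 151 CPM in cluster 2 and 75.9 CPM in cluster 7, Itga6 the other way at 268 and 362 CPM, and Itgb1 was at 96.1 and 108 CPM. Inside cluster 2 no measured gene was past 2-fold at day 7, beside 4.13% of 7547 genes: Lama3 was at 105 CPM (97.4 to 113), a log2 ratio of 0.42, and Lamb3 at 185.5 CPM (175 to 196), 0.40. Over the alternatives Lama3 ranged from -0.013 (thinned) to 0.75 and Lamb3 from 0.22 to 0.42. The filter on UMIs, genes and mitochondrial share kept 546 of the 1936 cells of cluster 2 at day 0 and 461 of the 703 at day 7, and the part of this difference in the levels was not tested. Dst was lower there, at 104 CPM (96.9 to 112) against 163 CPM (156 to 170.4), -0.60. At day 42 cluster 2 held 119.9 CPM of Lama3 (111 to 129.8) and 205 CPM of Lamb3 (193 to 218), and in cluster 7 Lama3 was at 9.43 CPM (6.88 to 12.6).

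**Figure D4:**
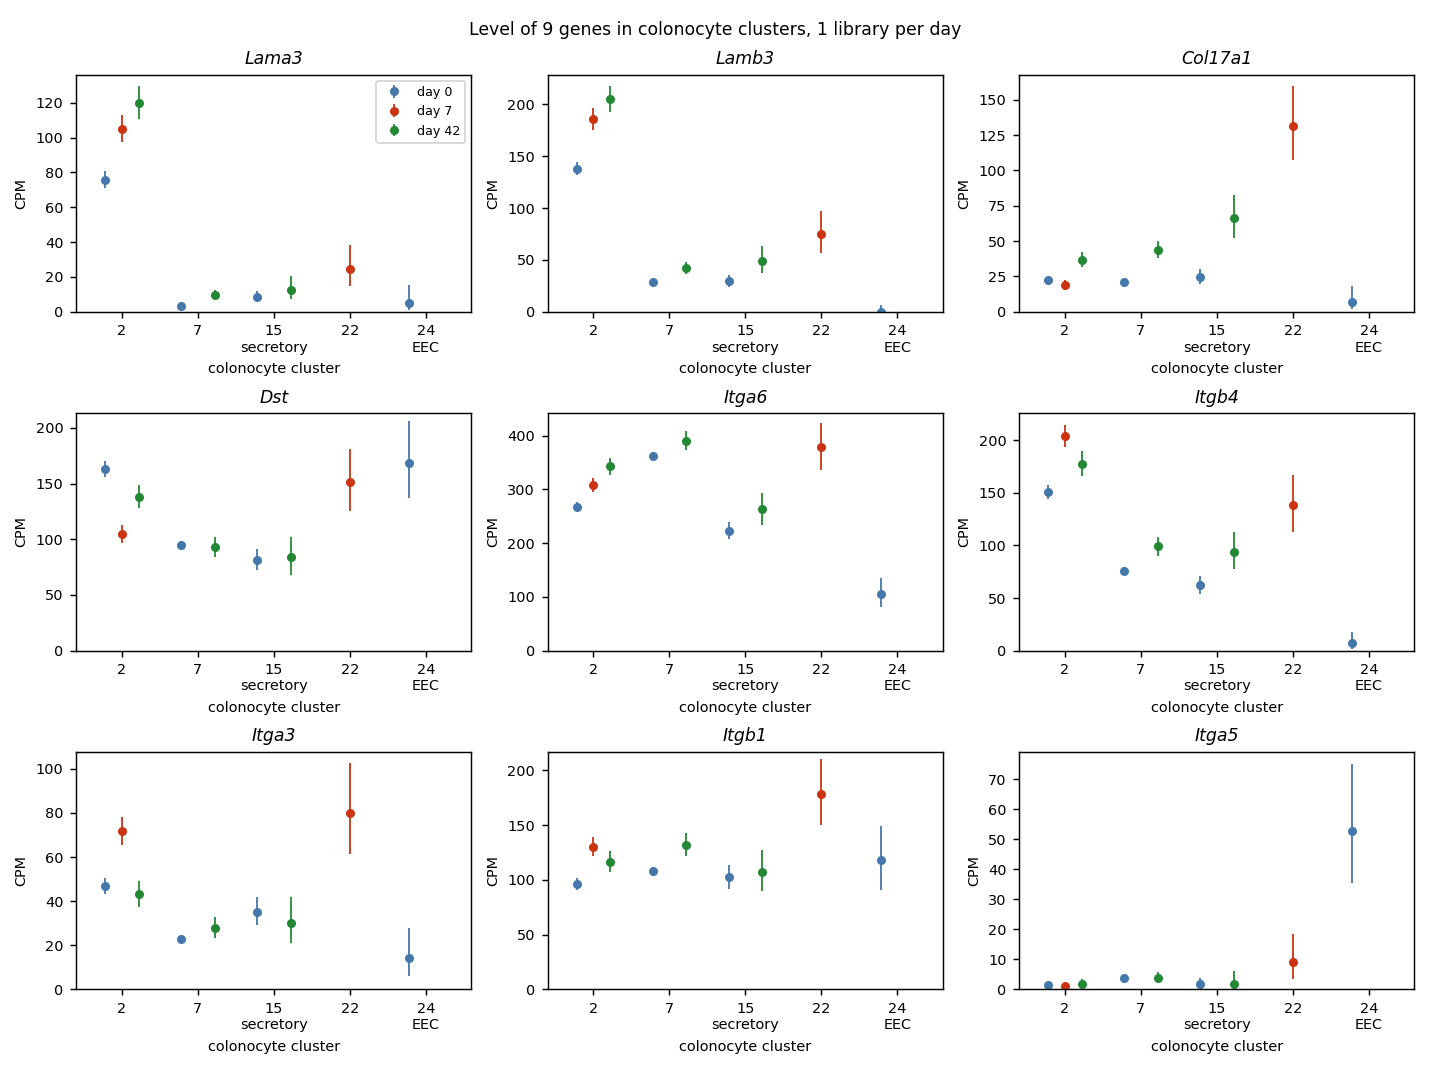
CPM of the 9 genes (vertical axes, from 0) in colonocyte clusters 2, 7, 15 (secretory), 22 and 24 (enteroendocrine, EEC) by day, with exact 95% Poisson intervals; days with under 50 cells are left out. Lama3 and Lamb3 are highest in cluster 2, Col17a1 in cluster 22 at day 7, and Itga5 in cluster 24.

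Col17a1 in columnar cells was low and stood near the squamous ratio to Krt14, a keratin of basal keratinocytes, at day 0 and day 7. It was at 21.5, 31.5 and 42.7 CPM in the columnar class, or 79.1, 26.2 and 37.0 UMIs for each 1000 Krt14 UMIs, beside 85.7, 24.2 and 21.4 in squamous cells and 41.7, 16.1 and 39.5 in T cells, which rest on 7, 3 and 6 Col17a1 UMIs. Fibroblasts had 82.9, 58.5 and 27.5. Whether the columnar level is free RNA or expression by colonocytes was not tested. Itga6 had 1178, 267 and 306 UMIs for each 1000 of Krt14 in columnar cells against 52.4, 39.2 and 26.9 in squamous cells, and Lamb3 222, 132 and 102 against 12.1, 9.89 and 7.94, ratios above the squamous ones on every day. Cluster 22, with 279 cells at day 7, had 131.7 CPM of Col17a1 and 24.3 Col17a1 and 13.8 Lamb3 UMIs for each 1000 of Krt14, against 24.2 and 9.89 in squamous cells. Its Itga6 (69.8 against 39.2), Itgb4 (25.5 against 15.4), Itga3 (14.8 against 6.47) and Itgb1 (32.9 against 18.3) also stood above, and Lama3 (4.53 against 7.04) below. Columnar markers summed to 14189 CPM in it, neutrophil markers to 12421 CPM and basal keratinocyte markers to 7996 CPM, and their part in these levels was not tested. Leaving it out kept both laminin genes past 2-fold in the class at day 7.

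Enteroendocrine cells were high in Itga5 among columnar cells. Their 78 cells at day 0 had no Lamb3 UMI (an upper limit of 5.27 CPM from 3 counts), 7.03 CPM of Itgb4 (1.92 to 18) and 105 CPM of Itga6 (80.5 to 136). Dst at 168.8 CPM (137 to 206) overlapped cluster 2 (163 CPM, 156 to 170.4). They had 52.7 CPM of Itga5 (35.6 to 75.3), where clusters 2, 7 and 15 held 1.57 to 3.70 CPM of Itga5 at day 0. The authors' files hold 12 such cells at each later day, too few to compare.

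Outside the epithelium Itga5 and Itgb1 were at their highest levels. Itga5 in fibroblasts was at 62.0 CPM at day 0 (56.1 to 68.3), 255.8 CPM at day 7 (233 to 280.02) and 106.5 CPM at day 42 (83.5 to 134). In endothelial cells it was at 62.8 CPM (41.0 to 92.0), 202 CPM (184 to 221) and 92.6 CPM (63.4 to 131), so that both stromal types were highest at day 7 with no overlap with the other days. Macrophages had 40.7 CPM (23.2 to 66.0) and 85.9 CPM (70.9 to 103) at day 0 and day 7. Itgb1 was at 1309 CPM in muscle-like cells at day 0 and at 506, 454 and 522 CPM in fibroblasts, above any keratinocyte cluster, whose range was 33.2 to 293 CPM. Itga6 and Itgb4 were also high in endothelial cells, where Itga6 was at 824 CPM (738 to 916), 369 CPM (345 to 395) and 434 CPM (367 to 509), and Itgb4 at 145, 106 and 185 CPM, with Lama3 at 11.2 to 16.9 CPM.

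**Figure D5:**
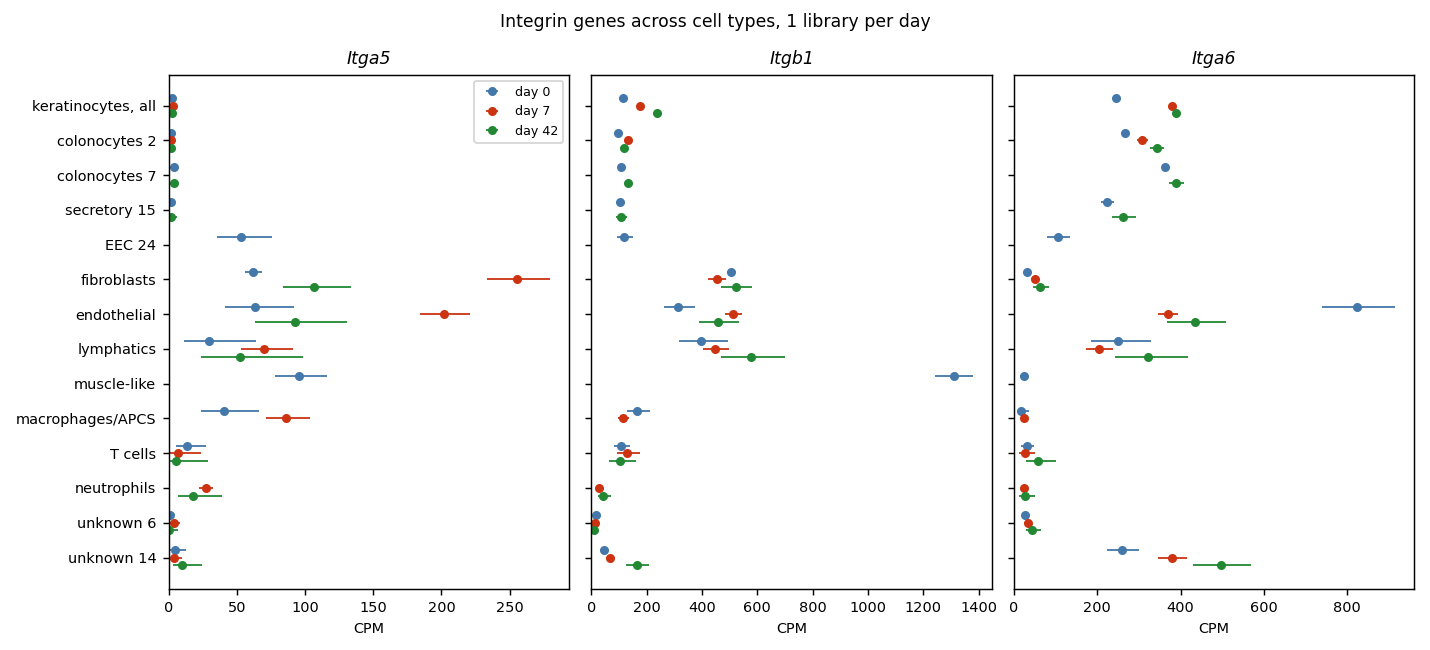
CPM of Itga5, Itgb1 and Itga6 (horizontal axes, from 0) by cell type with at least 50 cells in the library, at day 0 (blue), day 7 (red) and day 42 (green), with exact 95% Poisson intervals. Itga5 is near 0 in epithelium other than enteroendocrine cells and highest at day 7 in fibroblasts (255.8 CPM), and Itga6 is highest in endothelial cells at day 0 (824 CPM).

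Neutrophils and T cells held more Lamb3 than Lama3 UMIs. Neutrophils held 35.9 CPM of Lamb3 at day 7 (30.4 to 42.2) and 50.6 CPM at day 42 (29.5 to 81.1), against 3.33 CPM and 0 UMIs of Lama3, and T cells held 22.8, 35.7 and 31.0 CPM of Lamb3 against 0 UMIs, 9.74 CPM (2.01 to 28.5) and 10.3 CPM (1.25 to 37.3) of Lama3, so that their intervals overlap at both later days. Each 1000 Krt14 UMIs went with 42.8 Lamb3 UMIs in neutrophils at day 7 and 9.89 in squamous cells. Lamb3 in the annotation overlaps G0s2 and Hsd11b1 on the minus strand, and G0s2 was at 8315 CPM in neutrophils at day 7. It was also higher at day 7 in squamous cells (0.882, 38.7 and 11.2 CPM) and in columnar cells (1.78, 67.9 and 6.44 CPM). Hsd11b1 was at 81.2 CPM in neutrophils and 0.951 CPM in squamous cells at day 7. Whether reads of these genes were counted as Lamb3, in these cells or in the epithelial classes, was not tested.

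The other hemidesmosome parts moved unevenly. Krt14, a keratin of basal cells, was past 2-fold up in squamous cells at day 7, with 4685, 9695 and 14455 CPM. Plec, the plectin gene, was at 178.9, 169.95 and 272 CPM, with log2 ratios of -0.070 and 0.58, and Cd151, a tetraspanin that binds laminin-receptor integrins, at 58.7, 61.9 and 67.0 CPM. In columnar cells Plec (178 to 420.4 CPM), Krt5 and Krt14 were past 2-fold at day 7, the keratins being those of the neighbouring class. Of 23 other basement membrane genes 9 were measured in squamous cells at day 7 and 0 were past 2-fold, beside 2.55% of all genes, with a median of -0.34 beside -0.0089 over all genes. A count of 0 in so short a list is near that share, and the same holds for the squamous counts of 0 that follow. Lama5, the chain of laminin-511, was at 30.3, 17.9 and 20.8 CPM there, Col7a1 (anchoring fibrils) at 17.3, 11.5 and 16.2 CPM, Lamb2 lowest at day 7 (20.8 to 9.26 CPM, -0.68) and Col4a1 highest (5.15 to 10.1 CPM, 0.41). At day 42 Hspg2 was lowest (15.8 to 7.19 CPM, -0.58) and Npnt highest (17.6 to 22.2 CPM, 0.22). Agrn was the single one measured in columnar cells, with 12.1, 18.5 and 12.7 CPM.

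Of 16 other integrin genes 5 were measured in squamous cells at either later day against day 0 and 0 were past 2-fold. Itgb6, which pairs with alpha-v, came closest with 11.9, 10.3 and 32.7 CPM (-0.11 at day 7 and 0.97 at day 42), Itgav was at 47.8, 36.1 and 49.4 CPM, Itga2 at 13.1, 16.1 and 29.5 CPM and Itgb8 at 15.7, 5.00 and 5.06 CPM. In columnar cells at day 7, 3 of 6 were up and 1 down, beside 341 up and 206 down of 8486 genes (6.45%): Itgb6 (21.9 to 66.4 CPM, 1.26), Itgav (15.4 to 47.8 CPM, 1.19) and Itgb8 (3.53 to 19.1 CPM, 1.10) against Itga1 (16.8 to 2.24 CPM, -1.13). In the same cells at day 42 it was 0 of 5, near the 1.83% of 8317 genes, from Itga1 at -0.49 to Itgav at 0.71. Of 12 focal adhesion genes 10 were measured and 0 were past 2-fold in either class on either day. Fermt1 (kindlin-1) was at 61.6, 45.4 and 67.6 CPM in squamous and 118, 58.7 and 93.0 CPM in columnar cells, Parva was highest in squamous cells (0.36 and 0.59), Tln2 lowest there at day 42 (-0.72), and Tln1 highest in columnar cells (0.54 and 0.36). Among 9 ligands and other matrix receptors, 0 of 7 measured were past 2-fold in squamous cells, where Sdc4 was lowest at day 7 (332.5 to 249 CPM) and Tnc highest at day 42 (12.9 to 23.7 CPM, 0.55), with Thbs1 at 25.4, 25.3 and 19.3 CPM. In columnar cells 2 of 6 were down at day 7, beside the same 206 of 8486 genes, the lowest being Thbs1 (158 to 25.9 CPM, -2.23) and the highest Sdc1 (99.9 to 166.6 CPM, 0.68). At day 42 it was 1, beside 36 of 8317 genes down, Fn1 (26.3 to 2.77 CPM, -1.51), and Bcam was highest (0.36). Fibroblast markers in the columnar class summed to 186, 83.0 and 11.6 CPM, and their part in the Fn1 level was not tested.

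Across 36 profiles of keratinocyte and colonocyte clusters by day, genes among the most like Lamb3 of 6185 were Tspo (Pearson r of 0.83), Plec (0.83), Tns4 (0.74) and Serpinb6a (0.74). For Itgb4 they included Tspo (0.83), Plek2 (0.76), Tns4 (0.74) and Serpinb6a (0.74). For Itga5 they were Iapp (0.90), Spon2 (0.896), Chga (0.89), Uchl1 (0.89) and Nefm (0.89), and the 1 enteroendocrine profile holds the highest Itga5 level among the 36. Over the 27 keratinocyte profiles, Lamb3 with Itgb4 had an r of 0.945, Itga6 with Itgb4 0.92, Lama3 with Lamb3 0.91 and Col17a1 with Dst 0.87, while Lama3 with Dst had 0.28. The points share libraries, and their clusters were made from these counts, so these are descriptions.

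Single cells with both laminin chains were a larger share of cluster 3 at day 7 than at the other days: 54.6% of its cells had a UMI of both, against 17.5% at day 0 and 26.8% at day 42. Depth differed as given above. In cells thinned to 1000 UMIs, 53 of 1983 had both at day 7, where the product of the 2 shares gives 25.4, and 0 of 269 at day 0, where it gives 1.08. Thinned, 9.43% of cluster 3 cells had a Lama3 UMI at day 7, 3.72% at day 0 and 5.95% at day 42, against 3.09% of 97 thinned T cells at day 7, and 63.0%, 25.7% and 36.7% did unthinned.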

How the data were processed

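The study measured RNA in single cells of mouse distal colon and anus with 10x Chromium 3' libraries, 1 for each of 3 days. The values the authors deposited are counts of UMIs for each of 31053 genes and 37080 cells, not normalized. Cell Ranger 3.0.2 and the build mm10 are named in the submitters' processing notes, while filters on cells and the method of clustering and naming are not given in the sources used here. Cluster numbers (29) and cell type names (14) are the authors' own. The deposited size factor of each cell is a ratio, and cell total divided by it gave 5283.429 for every cell, which ties each cell's annotation to its matrix column.

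UMIs were summed for each class or cluster with at least 50 cells and library and scaled to CPM. Days were compared as log2 ratios with 10 CPM added, a gene being called past 2-fold with at least 10 CPM in either library. With 1 library for each day no test was run. The members and gene lists were chosen with earlier results of these data known. The named genes are the 9 members, 10 related genes given by name, the highest and lowest measured log2 ratio of each list and class against day 0, and the 5 genes most like Itgb4, Lamb3 and Itga5 (Pearson's r, at least 50 CPM in any profile). Of these, 1 related gene is not reported here. Symbols come from the deposited gene table, and 30934 gene IDs were found in GENCODE M21.

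Doublets were not removed in the main values. Scrublet's own threshold marked 0 cells in each library, so an alternative dropped the top 5% of cells by score. Other alternatives were size factors (median of ratios), totals that leave out mitochondrial and ribosomal protein genes, a pseudocount of 1 CPM, a filter on cells (1000 UMIs, 500 genes, at most 20% mitochondrial), the mean of CPM per cell, thinning to 1000 UMIs per cell, equal weight to clusters and dropping the 10 cells richest in a gene's UMIs. Leaving out clusters 3, 12 or 22, and the alternatives within single clusters, were chosen after seeing the data. The code was tested on simulated data. Computation used scanpy 1.11.5 and scipy 1.17.1 with pandas 2.3.3, numpy 2.4.6 and, for figures, matplotlib 3.10.9, under Python 3.11.15.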

Additional observations from a re-analysis of the deposited data

Results flagged for a closer look

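Several log2 ratios against day 0 had opposite signs in 2 groups of cells, with intervals apart in both, and the differences were not tested. Col17a1 was lower in squamous and higher in columnar cells, a difference of -1.15 at day 7 and -1.11 at day 42. Columnar Col17a1 had 26.2 and 37.0 UMIs for each 1000 of Krt14 on those days, against 24.2 and 21.4 in squamous cells. In cluster 2 alone, which is what equal cluster weights leave at day 7, the columnar ratio of day 7 was -0.17, so that the signs were then not opposite. At day 7 cluster 3 and cluster 9 differed by 2.44 for Lama3, 1.76 for Lamb3, 1.09 for Itga6 and 1.04 for Itgb4, the former up and the latter down. At day 42 the same clusters differed by 1.19 for Lamb3, 0.58 for Itga6 and 0.80 for Itgb4. Thinned, the Lamb3 ratios of clusters 3 and 9 were 0.40 and -0.67 at day 7 and 0.10 and -0.37 at day 42, so that the difference was smaller. For Lama3 at day 7 they were 1.18 and -0.58.

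Cells that the authors named unknown enter no comparison above. In their cluster 14, with 325, 395 and 299 cells and median UMIs of 1944, 2905 and 1295, only 5, 1 and 8 cells passed the filter on UMIs, genes and mitochondrial share, and the part of this in the levels was not tested. There some of the 9 genes stood above day 0 and others below. At day 7 Col17a1 (240.4 to 134.4 CPM) and Dst (426 to 289.1 CPM) were below it with intervals apart, while Lama3 was at 46.2 CPM, Itga6 at 380.6 CPM, Itgb4 at 125.5 CPM and Itga3 at 58.3 CPM. At day 42 Lama3 was at 76.7 CPM, Lamb3 at 112.7 CPM, Col17a1 at 371.6 CPM, Itga6 at 496.3 CPM, Itgb4 at 143.9 CPM and Itgb1 at 163 CPM. The day 0 levels of Lama3, Lamb3 and Itga6 were 18.3, 43.6 and 260.1 CPM. In unknown cluster 6, where 0, 1 and 0 cells passed that filter, Itga3 was at 12.7 CPM at day 42.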

How the results depend on the processing

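Squamous genes past 2-fold at day 7 (1 of 8) became 2 with size factors, with totals without mitochondrial and ribosomal protein genes, with a pseudocount of 1 CPM, with the filter on cells and without the 5% of cells with the highest Scrublet scores, and 0 with the mean of CPM per cell, with equal cluster weights, without the 10 cells with most UMIs of the gene and without cluster 3. With thinning the count of 1 was Col17a1 (-1.02) in place of Lama3 (0.39). Lama3 reversed to -0.14 without cluster 3. At day 42 against day 0 the count of 1 became 3 with size factors and with a pseudocount of 1 CPM, 2 without those 10 cells and without cluster 3, and 0 with the mean of CPM per cell, thinning and equal weights. At day 42 against day 7 it became 4 without cluster 3. Columnar genes past 2-fold at day 7 (2 of 8) became 4 with size factors and with the filter, 1 with the mean of CPM per cell and with thinning, and 0 with equal weights, which leave cluster 2 alone. At day 42 the columnar count of 1 became 2 with the filter and 0 with totals without mitochondrial and ribosomal protein genes, with the mean of CPM per cell, with thinning, with equal weights and without those 10 cells, and at day 42 against day 7 the count of 0 became 1 with thinning. In cluster 5, Lama3 at day 7 reversed to -0.26 with thinning. Columnar Col17a1 at day 7 turned to -0.17 with equal weights, and at day 42 against day 7 from 0.34 to -0.71 with the mean of CPM per cell and to -0.55 with thinning. No paired analysis was possible because each day has 1 library. The causes were not tested. Dissociation, capture and sequencing of each day are shared by all cells of that day, and 1 library limits every comparison between days.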
